A study of Homo sapiens with 18 samples.

Results

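Lipid droplet proteins were examined through 10 genes taken by name from the gene symbol column of the count tables: PLIN2, PLIN3, PLIN4, PLIN5, CIDEB, CIDEC, PNPLA2, ABHD5, G0S2 and HILPDA. All 10 were present among the 23106 genes counted. They were taken by name and not by a measured value, although earlier results of these data were known. PolyA+ RNA-seq had been performed in 3 human cell lines, with 3 normoxic and 3 hypoxic libraries in each, 18 in all. HKC-8, an immortalised line from the proximal tubule of the kidney, was kept in normoxia (21% oxygen in the sample titles) or in hypoxia for 16 h, at 0.5% oxygen by one label and 0.1% by the titles. HepG2, a hepatocellular carcinoma line, was kept in normoxia or at 0.5% oxygen for 16 h. RCC4 is a renal cancer line without functional VHL, the protein that marks the hypoxia-inducible factors (HIF) for destruction. The RCC4 cells used here, normoxic and hypoxic alike, carried stably transfected wild-type VHL (RCC4+VHL), and the word replacement stands in the titles of their libraries. Their hypoxic libraries were labelled 1.0% oxygen for 24 h, whereas the study's own text describes the same exposure for its RNA-seq in all lines. Exposure and cell line therefore cannot be told apart in any comparison with RCC4+VHL. All lines were grown in DMEM with antibiotics and 10% serum. No label says that replicates were separate cultures, so p-values measure only the spread between these libraries.

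Lipid droplets store triglyceride and sterol esters behind a phospholipid monolayer. Perilipins coat that monolayer and shield the stored lipid from lipases, and CIDE proteins help droplets to fuse and grow. Release of fatty acids begins with adipose triglyceride lipase (PNPLA2), which is switched on by its co-activator ABHD5 and held back by the small inhibitors G0S2 and HILPDA. HILPDA takes its name from its induction in hypoxia, and cells deprived of oxygen are known to accumulate droplets while fatty acid oxidation is low.

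Total counts ranged from 40915980 to 97984260 per library, with HKC-8 sequenced most deeply. A floor of 3 counts corresponded to 0.0306 to 0.0733 CPM, the count relative to the library total, and floors cover counting error only. All 12 reference hypoxia genes passed the test as higher in hypoxia in HKC-8 and in HepG2, and all 10 tested did so in RCC4+VHL. All 8 hepatocyte markers exceeded 1 CPM in HepG2. Of 8 renal tubule markers, 4 exceeded 1 CPM in HKC-8, 5 in RCC4+VHL and also 4 in HepG2, where their sum (276 to 330 CPM) was above that of HKC-8 (159 to 202 CPM), so this list did not separate the kidney lines from the liver line. None of 8 adipocyte markers did in any line (summed level at most 1.40 CPM), the 6 macrophage markers summed to at most 2.76 CPM, and FABP4 was at 0 in every RCC4+VHL and HepG2 library. VHL was counted 2844 to 3362 times per RCC4+VHL library, 3067 to 3743 times per HepG2 library and 6626 to 9274 times per HKC-8 library. These counts do not separate transfected from endogenous VHL transcripts. In bulk RNA, fewer cells of a kind and less RNA per cell cannot be told apart.

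The core sequence bound by HIF is A or G followed by CGTG. Both forms, ACGTG and GCGTG, were searched on both strands in the 250 bases before each RefSeq transcription start (GRCh38.p14), for which 9 of the 10 genes had an entry. HILPDA had none. Among 35116 such windows, 18.5% held ACGTG, 32.2% held GCGTG, 43.2% held either, and 7.76% held them at 3 or more positions. Windows of 3 genes are shown because they span the range found. PLIN2, the gene with the largest response in RCC4+VHL and HepG2, held 4 motif positions, where a single CACGTG counts on each strand. G0S2 held 4 separate copies, and the lipase gene PNPLA2 held 0. Motifs are in capitals, and each sequence is read in the direction of its gene. The PLIN2 window matched GRCh37 chr9:19127491-19127740 (minus strand), inside the annotated span of longer PLIN2 transcripts but in no exon. The G0S2 window matched chr1:209848507-209848756 (plus strand) and overlaps an exon of the antisense gene HSD11B1-AS1. The PNPLA2 window matched chr11:818664-818913 (plus strand), outside annotated genes.
PLIN2: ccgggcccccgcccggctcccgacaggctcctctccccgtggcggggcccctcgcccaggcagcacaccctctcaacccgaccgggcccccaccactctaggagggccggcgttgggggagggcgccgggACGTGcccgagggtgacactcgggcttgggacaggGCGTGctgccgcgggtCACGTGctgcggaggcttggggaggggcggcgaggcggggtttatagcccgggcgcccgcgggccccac
G0S2: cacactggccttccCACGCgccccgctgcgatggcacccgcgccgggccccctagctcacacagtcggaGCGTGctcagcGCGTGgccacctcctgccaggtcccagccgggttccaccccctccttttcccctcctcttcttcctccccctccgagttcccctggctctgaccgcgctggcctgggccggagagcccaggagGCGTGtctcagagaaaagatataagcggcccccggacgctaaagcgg
PNPLA2: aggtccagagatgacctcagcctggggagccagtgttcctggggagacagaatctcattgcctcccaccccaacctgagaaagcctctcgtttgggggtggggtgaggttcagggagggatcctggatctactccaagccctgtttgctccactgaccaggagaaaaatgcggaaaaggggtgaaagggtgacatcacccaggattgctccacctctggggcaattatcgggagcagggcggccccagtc

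Counted from the start site, the PLIN2 window held ACGTG at -120 to -116, GCGTG at -85 to -81, and a CACGTG that reads ACGTG on each strand at -69 to -64. PLIN2 was the only one of the 9 genes with ACGTG in its window. G0S2 held GCGTG alone, with 1 of its 4 copies on the opposite strand. The PLIN3 window held GCGTG at 3 positions, that of PLIN5 at 2, and 1 was found in 1 of 2 CIDEB windows and in 2 of 3 overlapping ABHD5 windows. The windows of PLIN4, PNPLA2 and CIDEC held neither form. These matches describe letters and not bound sites.

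Hypoxia raised 2 droplet genes in every line. These were PLIN2, the coat protein that is stabilised by stored lipid, and HILPDA, the lipase inhibitor. ABHD5 fell in RCC4+VHL and HepG2, and PNPLA2 fell slightly in RCC4+VHL and rose in HepG2. Of 8 members with enough counts to be tested in HKC-8, 2 rose and 1 fell by edgeR's quasi-likelihood test at an adjusted p under 0.05, against 20.4% of all 13536 genes tested (11.2% higher and 9.12% lower). With the replicate number as a block, which pairs the HKC-8 libraries, 3 rose and 2 fell, and 5755 genes were called in place of 2757. In RCC4+VHL, 3 of 6 rose and 2 fell, against 50.1% of 12811 genes (25.9% higher and 24.2% lower). In HepG2, 3 of 9 rose and 1 fell, against 39.1% of 13623 genes (19.9% higher and 19.2% lower). The median log2 fold change of tested members was 0.20 in HKC-8, -0.02 in RCC4+VHL and 0.21 in HepG2, beside 0.0036, -0.0018 and -0.0044 over all genes.

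**Figure D1:**
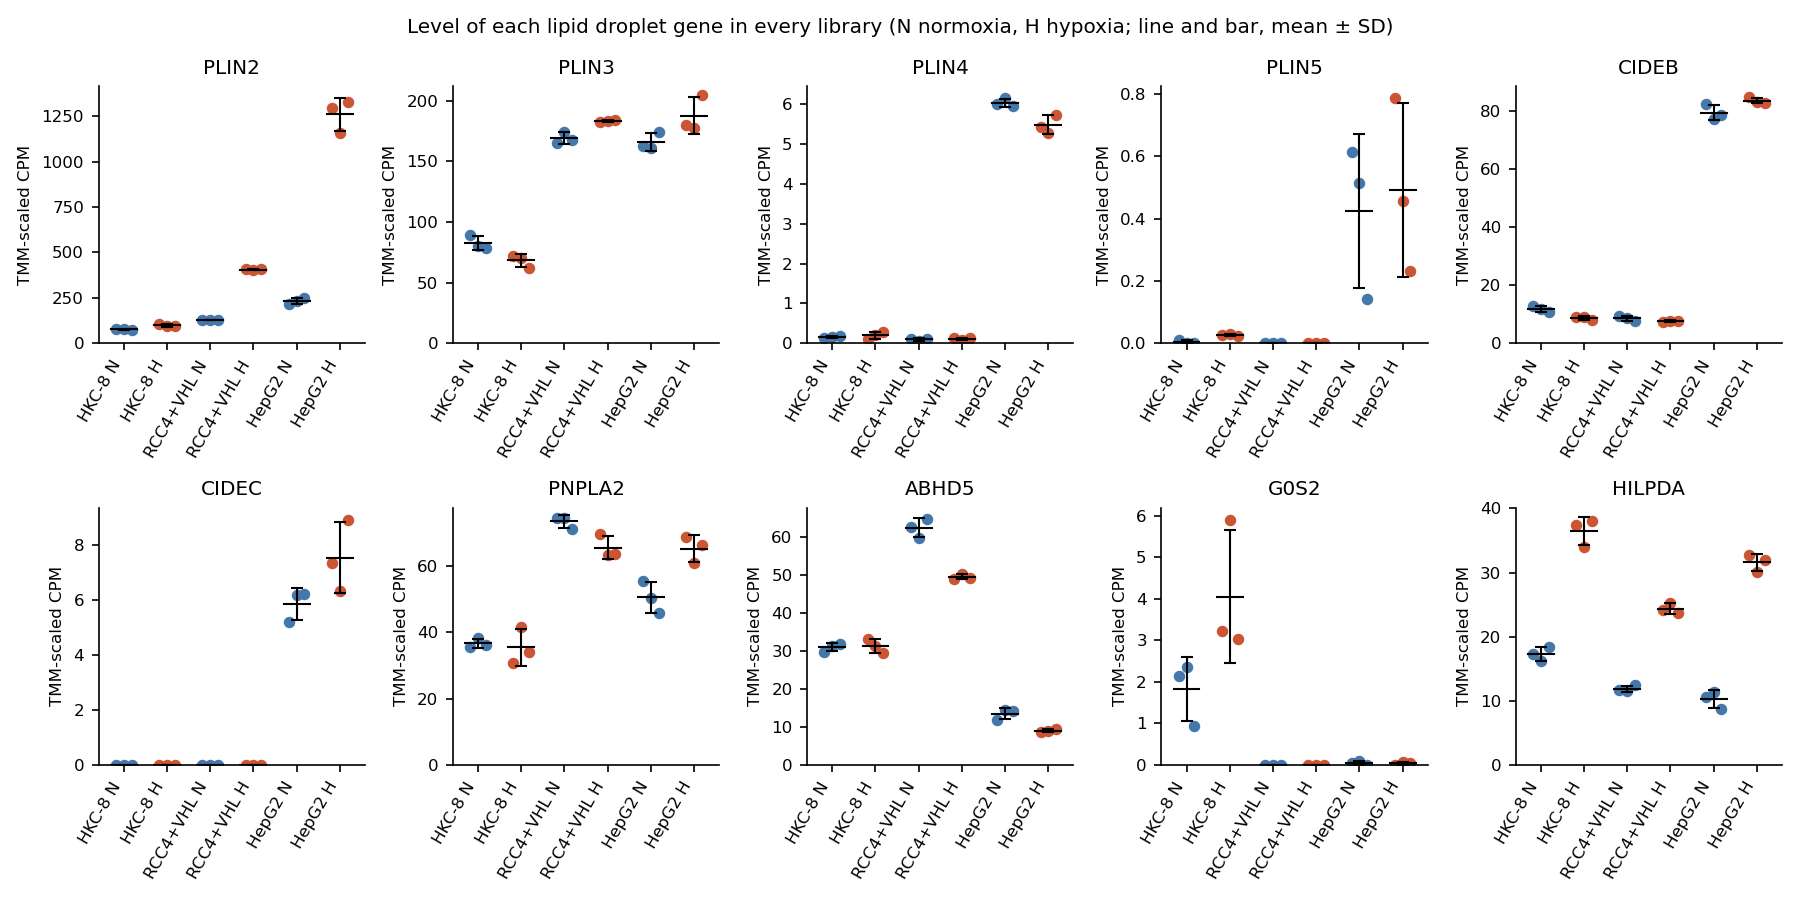
TMM-scaled CPM of the 10 genes in each of the 18 libraries (points), with the mean and SD of 3 libraries per group; blue is normoxia (N), orange hypoxia (H), and each panel has its own axis from 0. PLIN2 in hypoxic HepG2 lies between 1156 and 1330.2 CPM, above every other library, and CIDEC has reads only in HepG2.

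PLIN2 (chr9:19108373-19149288, minus strand, GRCh37) was at 75.8, 80.5 and 72.5 CPM in the normoxic HKC-8 libraries and at 108, 94.6 and 93.6 CPM in the hypoxic ones (CPM scaled by TMM over the 18 libraries). In RCC4+VHL it stood at 127, 126 and 127 CPM in normoxia and at 408, 403 and 406 CPM in hypoxia. In HepG2 it stood at 217, 233 and 249.7 CPM in normoxia and at 1293, 1156 and 1330.2 CPM in hypoxia. The groups did not overlap in any line, and the rise was smallest in HKC-8. The fitted fold was 1.30 in HKC-8 (log2 0.37, SE 0.08, n = 3 against 3, adjusted p = 0.0152, edgeR). It was 3.21 in RCC4+VHL (log2 1.68, SE 0.03, adjusted p = 7.36e-22) and 5.40 in HepG2 (log2 2.43, SE 0.08, adjusted p = 3.48e-11). By log2 fold change, PLIN2 ranked 81 of 12811 genes in RCC4+VHL, 130 of 13623 in HepG2 and 2648 of 13536 in HKC-8. The HKC-8 call was lost without normoxic replicate 1 (log2 0.37, adjusted p = 0.0736) or without hypoxic replicate 1 (log2 0.31, adjusted p = 0.0737).

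The response of PLIN2 differed between all pairs of lines when the difference itself was tested as an interaction in edgeR. It was smaller in HKC-8 than in HepG2 by 2.06 on the log2 scale (95% interval 1.81 to 2.32, adjusted p = 4.74e-08), where the oxygen and time labels of both lines are the same apart from the HKC-8 titles. It was larger in RCC4+VHL than in HKC-8 by 1.29 (1.11 to 1.47, adjusted p = 1.98e-06). It was smaller in RCC4+VHL than in HepG2 by 0.76 (0.59 to 0.92, adjusted p = 1.04e-06).

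**Figure D2:**
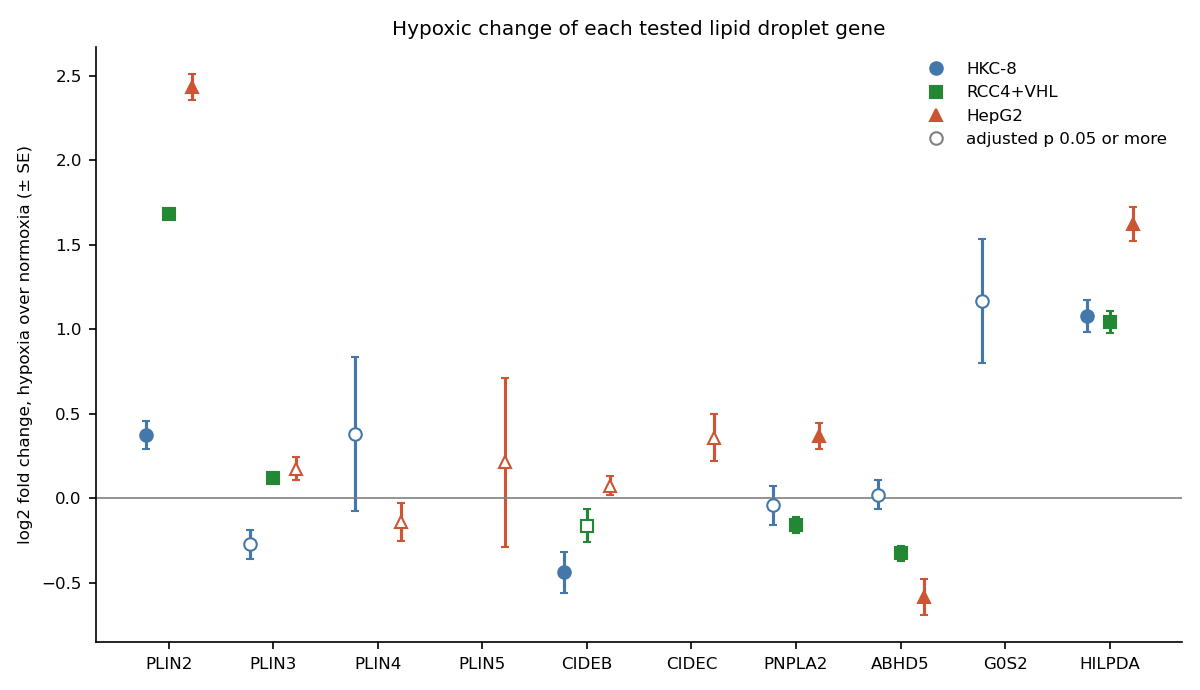
Log2 fold change of hypoxia over normoxia (± SE, 3 against 3 libraries) for each tested member and cell line; filled symbols passed an adjusted p of 0.05 in edgeR and open ones did not. PLIN2 (0.37, 1.68 and 2.43) and HILPDA (1.08, 1.04 and 1.62) are filled in all 3 lines.

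PLIN3 (TIP47, chr19:4838353-4867706, minus strand), which moves from the cytosol onto new droplets, changed little. It was at 89.5, 80.6 and 78.4 CPM in normoxic HKC-8 and at 72.3, 70.7 and 62.1 CPM in hypoxic HKC-8. In RCC4+VHL it was at 165, 174 and 168 CPM in normoxia and 182, 184 and 184 CPM in hypoxia, and in HepG2 at 162, 162 and 174 CPM against 180.0, 178 and 205 CPM. Its hypoxic libraries all lay below the normoxic ones in HKC-8 and above them in the other lines. The RCC4+VHL rise was called (log2 0.12, SE 0.03, adjusted p = 0.00586), although not in a single fit of all 18 libraries (adjusted p = 0.268). The HKC-8 difference was -0.27 (adjusted p = 0.0545) and the HepG2 one 0.17 (adjusted p = 0.0533), neither of which passed. The HepG2 one lay close to the threshold and passed with DESeq2 (adjusted p = 0.0417), median-of-ratios factors (0.04998), a minimum of 10 counts (0.0462), or without normoxic replicate 3 (0.0192). The HKC-8 one passed without normoxic replicate 3 (adjusted p = 0.0438). HKC-8 replicate numbers may pair the libraries, and with the replicate number as a block the HKC-8 difference passed (-0.27, adjusted p = 0.00352). The responses themselves differed between HKC-8 and HepG2 by -0.45 (95% interval -0.70 to -0.20, adjusted p = 0.0241) and between RCC4+VHL and HKC-8 by 0.38 (0.18 to 0.57, adjusted p = 0.0136). The former call was lost in 5 of 12 fits that left out 1 library: HKC-8 hypoxic replicate 3 or normoxic replicate 1, HepG2 hypoxic replicate 3, or HepG2 normoxic replicate 1 or 2, with adjusted p up to 0.0705.

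PLIN4 (chr19:4502204-4518498, minus strand), a perilipin of adipocytes and muscle with a long amphipathic repeat, was close to the floor in the kidney lines, at 9 to 23 counts per HKC-8 library and 3 to 6 per RCC4+VHL library. In HepG2 it had 265, 275 and 250 counts in normoxia and 228, 243 and 222 in hypoxia, which gave 6.01, 6.16 and 5.97 CPM against 5.43, 5.28 and 5.74 CPM. The HepG2 groups did not overlap, but the change of -0.14 (SE 0.11, adjusted p = 0.349) did not pass, nor did that of 0.38 in HKC-8 (SE 0.45, adjusted p = 0.593). It was not tested in RCC4+VHL. PLIN5 (chr19:4522543-4535236, minus strand), the perilipin of oxidative tissues that brings droplets to mitochondria, had 0 counts in all 6 RCC4+VHL libraries and 0 to 3 in HKC-8. Its HepG2 counts were 27, 23 and 6 in normoxia and 33, 21 and 9 in hypoxia, which overlap (log2 0.21, SE 0.50, adjusted p = 0.771). PLIN4 shares exonic bases with HDGFL2 on the opposite strand and PLIN5 with a gene on its own strand, and the strand setting of the counting is not given in the sources used here, so these low counts are uncertain.

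Summed over PLIN2 to PLIN5 and expressed per kilobase of annotated exon, the perilipin level was 45.5 ± 2.33 CPM per kb (SD, n = 3) in normoxic and 44.7 ± 3.26 in hypoxic HKC-8. It went from 87.1 ± 1.59 to 147.9 ± 0.468 in RCC4+VHL and from 108.2 ± 5.60 to 320.8 ± 22.7 in HepG2. PLIN2 made up 33.5 ± 1.83% of that sum in normoxic HKC-8 and 44.1 ± 1.61% in hypoxia. Its share went from 29.0 ± 0.642% to 54.7 ± 0.254% in RCC4+VHL and from 42.99 ± 1.05% to 78.4 ± 0.960% in HepG2, and almost all of the rest was PLIN3. On this scale PLIN3 stood above PLIN2 in all normoxic groups and in hypoxic HKC-8, and PLIN2 stood above PLIN3 in hypoxic RCC4+VHL and HepG2. The order depends on the length used, since the exons of PLIN2 cover 5011 bases but its canonical transcript only 1897. Per kilobase of canonical transcript, a choice made after seeing the data, the PLIN2 share was 52.0% and 62.9% in HKC-8, 46.8% and 72.3% in RCC4+VHL, and 61.9% and 88.6% in HepG2. The share was higher in hypoxia than in normoxia in each line with either length. The sum on that scale was 77.3 ± 3.49 and 82.7 ± 6.07 CPM per kb in HKC-8, opposite in direction to the values above, 142.7 ± 1.80 and 296 ± 1.28 in RCC4+VHL, and 198 ± 11.4 and 749 ± 53.7 in HepG2.

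**Figure D3:**
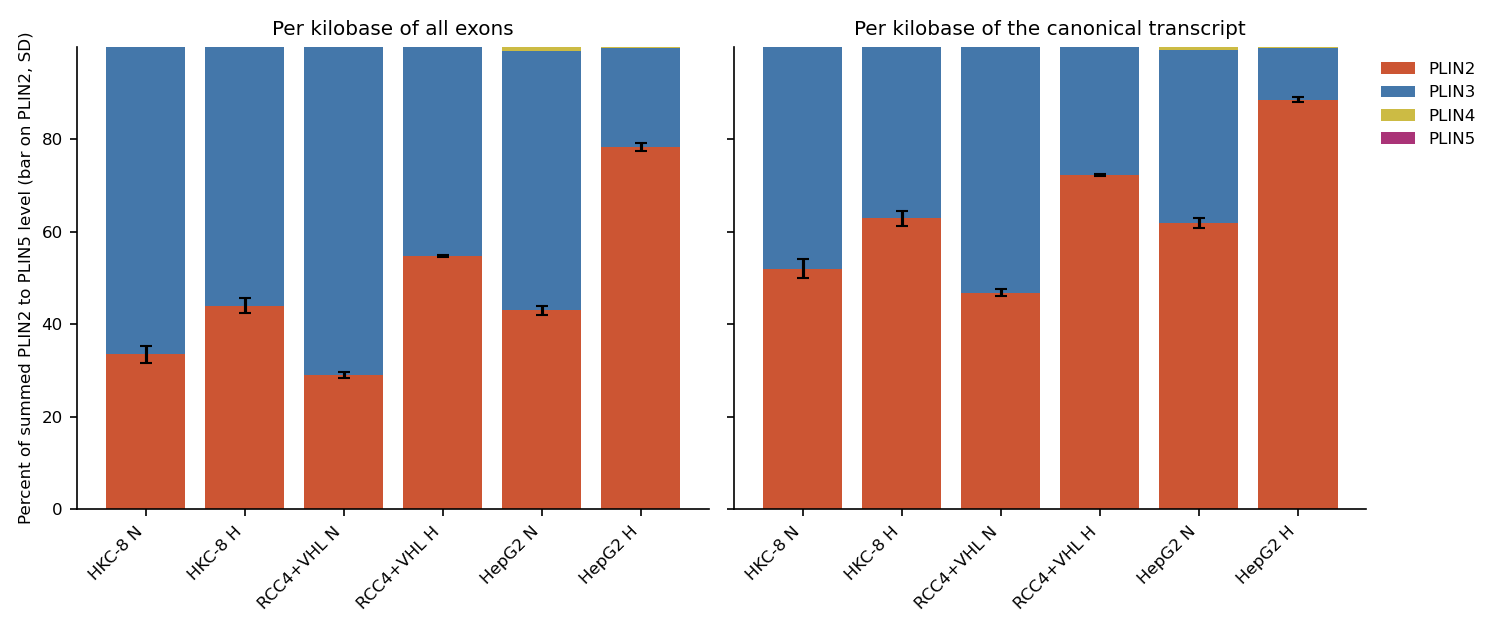
Share of PLIN2, PLIN3, PLIN4 and PLIN5 in their summed level (percent of CPM per kilobase), per kilobase of all annotated exons (left) and of the canonical transcript (right), as means of 3 libraries with the SD of PLIN2. PLIN2 rises from 42.99% to 78.4% in HepG2 on the left scale and from 61.9% to 88.6% on the right, while PLIN4 and PLIN5 are hardly visible.

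The CIDE genes separated the liver line from the kidney lines more than they separated oxygen levels. CIDEB, which acts on droplets and on lipoprotein assembly in hepatocytes, was at 82.6, 77.3 and 78.9 CPM in normoxic HepG2 and at 84.9, 83.3 and 83.0 CPM in hypoxia, a change of 0.07 on the log2 scale that did not pass (SE 0.06, adjusted p = 0.332). In HKC-8 it was at 12.9, 11.8 and 10.8 CPM and at 9.19, 8.98 and 7.96 CPM, and it fell by 0.44 (SE 0.12, adjusted p = 0.0348). That call was lost without normoxic replicate 1 (adjusted p = 0.143), normoxic replicate 2 (0.0952), hypoxic replicate 1 (0.0888) or hypoxic replicate 3 (0.0998). RCC4+VHL libraries held it at 9.36, 8.64 and 7.79 CPM and at 7.40, 7.85 and 7.74 CPM, which overlap (log2 -0.16, SE 0.10, adjusted p = 0.175). The response in HKC-8 was below that in HepG2 by 0.51 (95% interval 0.27 to 0.76, adjusted p = 0.0103).

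CIDEB (chr14:24774393-24780636, minus strand) overlaps exons of NOP9 and LTB4R2 on the opposite strand. NOP9 had 619 to 2834 counts per library and fell by 0.44 in HKC-8 (adjusted p = 0.0149), by 0.28 in RCC4+VHL (adjusted p = 0.00536) and by 0.37 in HepG2 (adjusted p = 5.02e-04). The part of NOP9 reads in the CIDEB counts was not tested.

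CIDEC (FSP27, chr3:9908395-9921939, minus strand), which fuses droplets in fat cells and in fatty liver, had 0 counts in all 12 kidney libraries. It had 229, 277 and 260 counts in normoxic HepG2 and 309, 292 and 345 in hypoxic HepG2, or 5.19, 6.20 and 6.21 CPM against 7.36, 6.34 and 8.92 CPM. These groups did not overlap, but the difference of 0.36 did not pass (SE 0.14, adjusted p = 0.0602). It passed narrowly with DESeq2 (adjusted p = 0.0498), and without hypoxic replicate 2 (adjusted p = 0.0293). With a floor of 3 counts per library, CIDEC was at least 166-fold higher in normoxic HepG2 than in normoxic HKC-8 and at least 93.1-fold higher than in normoxic RCC4+VHL. The related pseudogene CIDECP was counted 76 to 405 times in every library. The paper states that fragments without a unique mapping were excluded, so reads matching both genes equally were not counted. The part of CIDEC reads lost in this way was not tested.

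PNPLA2 (chr11:818914-825573, plus strand), the enzyme that makes the first cut of triglyceride, fell in one cancer line and rose in the other. In HKC-8 it was at 35.7, 38.1 and 36.1 CPM in normoxia and at 30.6, 41.6 and 34.2 CPM in hypoxia, with hypoxic libraries on both sides of the normoxic ones (log2 -0.04, SE 0.12, adjusted p = 0.826). In RCC4+VHL it was at 74.6, 74.6 and 71.3 CPM against 69.6, 63.4 and 63.8 CPM and fell by 0.16 (SE 0.05, adjusted p = 0.00537), a call not made in the single fit of 18 libraries (adjusted p = 0.223). In HepG2 it was at 55.5, 50.3 and 45.9 CPM against 68.7, 60.8 and 66.3 CPM and rose by 0.37 (SE 0.08, adjusted p = 0.00221). Neither of the last comparisons had overlapping groups. The responses of RCC4+VHL and HepG2 differed by -0.53 (95% interval -0.73 to -0.34, adjusted p = 4.28e-04). Those of HKC-8 and HepG2 differed by -0.41 (-0.73 to -0.10), which did not pass (adjusted p = 0.0973) but did with the replicate number as a block (adjusted p = 0.0129) or without HKC-8 hypoxic replicate 2 (adjusted p = 0.0134). Those of RCC4+VHL and HKC-8 differed by -0.13 (-0.41 to 0.14), which did not pass (adjusted p = 0.535).

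ABHD5 (CGI-58, chr3:43731600-43775863, plus strand), the co-activator without which PNPLA2 works slowly, fell in both cancer lines. It was at 62.7, 59.9 and 64.8 CPM in normoxic RCC4+VHL and at 49.0, 50.3 and 49.3 CPM in hypoxia, a change of -0.33 (SE 0.05, adjusted p = 2.66e-06). In HepG2 it was at 11.7, 14.4 and 14.0 CPM against 8.57, 8.86 and 9.34 CPM, a change of -0.59 (SE 0.11, adjusted p = 7.36e-04). Neither line had overlapping groups. HKC-8 held 29.8, 31.2 and 31.8 CPM in normoxia and 33.1, 31.3 and 29.6 CPM in hypoxia, which overlap (log2 0.02, SE 0.09, adjusted p = 0.890). The HKC-8 response lay above that of HepG2 by 0.60 (95% interval 0.32 to 0.89, adjusted p = 0.0108), and the RCC4+VHL response lay below that of HKC-8 by 0.37 (0.18 to 0.56, adjusted p = 0.0133). The RCC4+VHL and HepG2 responses differed by 0.25 (0.03 to 0.47), which did not pass (adjusted p = 0.0919) unless HepG2 normoxic replicate 1 was left out (0.34, adjusted p = 0.0128). ABHD5 shares exonic bases with ANO10 on the opposite strand.

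HILPDA (chr7:128095903-128098472, plus strand) was at 17.3, 16.2 and 18.4 CPM in normoxic HKC-8 and at 37.5, 33.9 and 38.0 CPM in hypoxic HKC-8. The RCC4+VHL values went from 11.7, 11.5 and 12.4 CPM to 24.2, 25.2 and 23.6 CPM. In HepG2 it went from 10.6, 11.4 and 8.74 CPM to 32.7, 30.1 and 32.0 CPM. Every hypoxic library was above every normoxic library of its line. HILPDA rose 2.11-fold in HKC-8 (log2 1.08, SE 0.10, adjusted p = 1.61e-04), 2.06-fold in RCC4+VHL (log2 1.04, SE 0.07, adjusted p = 7.33e-12) and 3.07-fold in HepG2 (log2 1.62, SE 0.10, adjusted p = 3.88e-08).

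The 2 kidney lines did not differ detectably in the HILPDA response (-0.06, 95% interval -0.30 to 0.19, adjusted p = 0.810), an interval that leaves room for differences of up to 0.30 on the log2 scale. The response was smaller than that of HepG2 in RCC4+VHL (-0.59, -0.84 to -0.33, adjusted p = 0.00171) and in HKC-8 (-0.55, -0.85 to -0.24, adjusted p = 0.0267). The latter call was lost in 6 of 12 fits that left out 1 library, namely HKC-8 hypoxic replicate 2, HKC-8 normoxic replicate 1 or 3, or any HepG2 hypoxic replicate, with adjusted p from 0.0513 to 0.0880. Among the 2 genes that rose everywhere, PLIN2 thus differed between lines in every pair while HILPDA differed in the pairs with HepG2. Annotated noncoding genes share exonic bases with HILPDA on the same strand and were not counted separately.

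G0S2 (chr1:209848757-209849735, plus strand), the other inhibitor of PNPLA2, was read in HKC-8 at 179, 192 and 85 counts in normoxia and 257, 577 and 250 in hypoxia, or 2.15, 2.37 and 0.935 CPM against 3.22, 5.90 and 3.03 CPM. Hypoxic replicate 2 was the highest, and the groups did not overlap. The log2 change of 1.17 (SE 0.37) did not pass (adjusted p = 0.0526), but it passed with the replicate number as a block (1.19, adjusted p = 0.00109) and with DESeq2 (1.16, adjusted p = 0.00586). It passed in none of the 6 edgeR fits that left out 1 library (log2 0.79 to 1.40, adjusted p from 0.0519 to 0.131). All 6 RCC4+VHL libraries had 0 counts, and HepG2 libraries had 0 to 4, so neither was tested. With the floor of 3 counts per library, G0S2 was at least 28.8-fold higher in normoxic HKC-8 than in normoxic RCC4+VHL, and at least 66.0-fold higher in hypoxia.

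Counted over tested members, 3 lay higher and 2 lower in hypoxia without overlap in HKC-8, where 20% and 19.1% of all tested genes did so. In RCC4+VHL 3 lay higher and 2 lower, against 28.8% and 27.6% of genes. In HepG2 6 lay higher and 2 lower, against 24.8% and 25.2%.

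The balance of inhibitor and lipase was also read within each library. Per kilobase of exon, the ratio of HILPDA to PNPLA2 was 0.898, 0.785 and 0.942 in normoxic HKC-8 and 2.27, 1.51 and 2.05 in hypoxic HKC-8. It was 0.290, 0.286 and 0.322 against 0.643, 0.737 and 0.686 in RCC4+VHL. In HepG2 it was 0.355, 0.419 and 0.352 against 0.880, 0.917 and 0.894. The mean ratio was 2.22, 2.30 and 2.39 times higher in hypoxia in HKC-8, RCC4+VHL and HepG2, and the groups were apart in each. The ratio first planned added G0S2 to HILPDA. Its mean was 1.09 in normoxic and 2.43 in hypoxic HKC-8, and 0.379 and 0.900 in HepG2. In RCC4+VHL, without G0S2 counts, it was unchanged. The ratio of ABHD5 to PNPLA2 was 0.429 ± 0.0167 (SD, n = 3) in normoxic and 0.457 ± 0.0854 in hypoxic HKC-8. It was 0.432 ± 0.0276 and 0.385 ± 0.0239 in RCC4+VHL and 0.136 ± 0.0254 and 0.0697 ± 0.00556 in HepG2. These are ratios of mRNA levels and say nothing of the proteins.

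**Figure D4:**
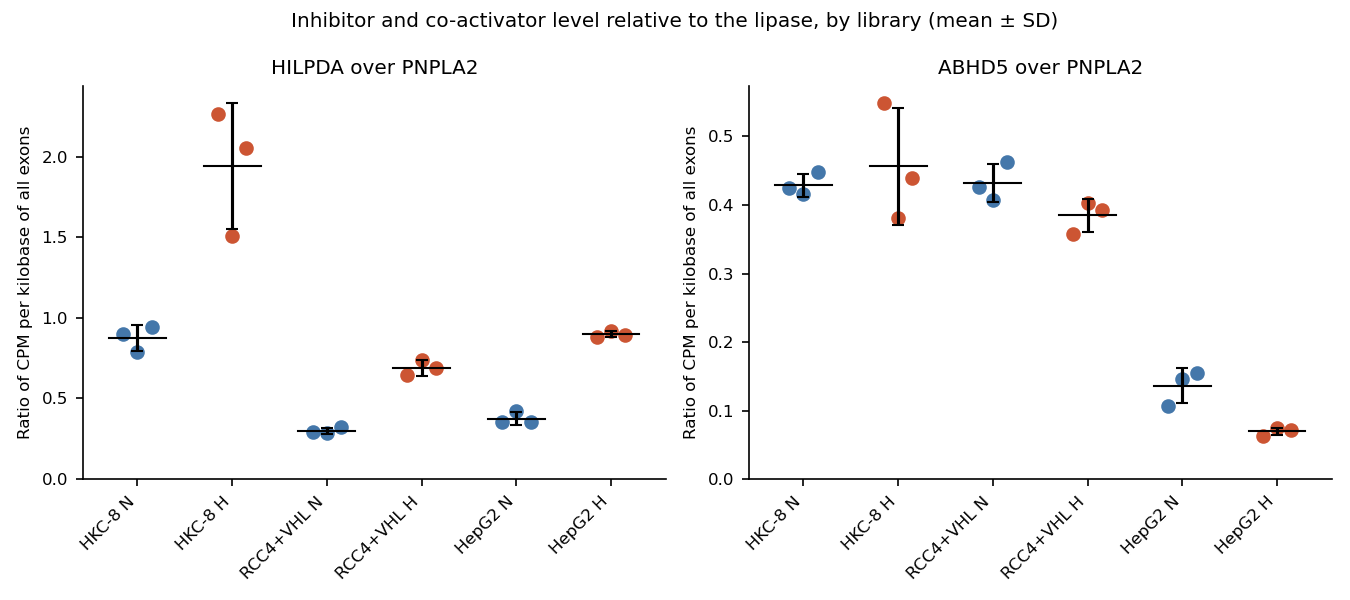
Ratio of HILPDA (left) and ABHD5 (right) to PNPLA2 in each library, from CPM per kilobase of all annotated exons, with the mean and SD of 3 libraries; blue is normoxia (N) and orange hypoxia (H). The HILPDA ratio is higher in hypoxia in all 3 lines, whereas the ABHD5 ratio is lowest in hypoxic HepG2, at 0.0697.

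Of 10 members in the fit of HKC-8 and HepG2, 5 responded differently, with 1 higher and 4 lower in HKC-8, against 9.3% of 15046 genes (4.28% higher and 5.02% lower). In RCC4+VHL and HKC-8 it was 3 of 8, with 2 higher and 1 lower in RCC4+VHL, against 15.2% of 14203 genes (7.87% higher and 7.29% lower), and in RCC4+VHL and HepG2 it was 3 of 9, all lower in RCC4+VHL, against 22.6% of 14813 genes (10.9% higher and 11.7% lower). In each fit 7 members had mean counts above the floor in all 4 groups, and the calls were among these. PLIN2 was called in each of the comparisons. With the replicate block the background was higher where HKC-8 took part, at 3019 genes in place of 1399 against HepG2 and 4071 in place of 2154 against RCC4+VHL.

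In normoxia the lines differed in most genes, with 80.8% of 14806 called between RCC4+VHL and HKC-8, 83% between HepG2 and HKC-8 and 83.3% between HepG2 and RCC4+VHL, so a call here says little about droplet genes. Of 9 members in that fit, 4 were higher and 3 lower in RCC4+VHL than in HKC-8 (39.4% and 41.4% of genes), 6 higher and 3 lower in HepG2 than in HKC-8 (42.6% and 40.5%), and 4 higher and 2 lower in HepG2 than in RCC4+VHL (45.3% and 38.1%). These counts include CIDEC, G0S2 and PLIN4, which passed the count filter of this fit only through the line where they were high. Calls of these genes between that line and another were therefore favoured by the filter and are description only. Cell line and sequencing run or depth cannot be told apart in these contrasts. PLIN2 was lowest in HKC-8, higher in RCC4+VHL (log2 0.74, SE 0.07, adjusted p = 1.88e-07) and highest in HepG2 (0.89 above RCC4+VHL, SE 0.07, adjusted p = 2.69e-08). PLIN3 was lowest in HKC-8, and RCC4+VHL and HepG2 did not differ beyond their spread (-0.02, adjusted p = 0.800). HILPDA was highest in HKC-8, with RCC4+VHL and HepG2 not separated (-0.20, SE 0.12, adjusted p = 0.120) unless HepG2 normoxic replicate 2 was left out (-0.34, adjusted p = 0.0273).

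PNPLA2 ran from HKC-8 through HepG2 (0.48 above HKC-8, adjusted p = 4.47e-05) to RCC4+VHL (HepG2 0.53 below it on the log2 scale, -0.53, adjusted p = 1.82e-05). ABHD5 ran from HepG2 through HKC-8 to RCC4+VHL, with HepG2 at -2.21 against RCC4+VHL (SE 0.09, adjusted p = 2.60e-11). CIDEB was higher in HepG2 than in HKC-8 by 2.77 (SE 0.09, adjusted p = 3.33e-12) and lower in RCC4+VHL than in HKC-8 (-0.45, adjusted p = 5.53e-04). PLIN4 had 250 to 275 counts per normoxic HepG2 library, 10 to 17 in HKC-8 and 3 to 6 in RCC4+VHL (fitted log2 5.27 in HepG2 over HKC-8). It passed the count filter only through HepG2, so no p-value is given for that difference. At these low counts the kidney lines were not separated in PLIN4 (-0.66, SE 0.40, adjusted p = 0.142). The median over all genes was 0.11 in HepG2 against RCC4+VHL, and these differences stand beside that shift.

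By likeness of log2 CPM over the 18 libraries, the genes nearest to HILPDA among 15306 were FGF11 (Pearson r = 0.963), BNIP3L, a mitophagy receptor (r = 0.958), and ENO1, a glycolytic enzyme (r = 0.956). Those nearest to PLIN2 were RAB42 (r = 0.972), SEC14L2 (r = 0.956) and RIOK3 (r = 0.950). HILPDA and PLIN2 had r = 0.30 with each other. The 18 points share 3 cell lines and their depth, so these values describe patterns over groups only.

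The remaining lipid genes were read from lists, whose counts stand against the shares of all genes called: 11.2% higher and 9.12% lower in HKC-8, 25.9% and 24.2% in RCC4+VHL, and 19.9% and 19.2% in HepG2. These lists are short, and their counts are given as descriptions only. Of 16 other droplet-associated genes tested in HKC-8, 1 rose and 2 fell, and the median log2 change was -0.18. In RCC4+VHL it was 1 up and 8 down of 15 (median -0.11), and in HepG2 2 up and 5 down of 18 (median -0.11). LPCAT1, which makes phosphatidylcholine at the droplet surface, fell by 0.69 in HKC-8 (adjusted p = 0.00855) and rose by 1.08 in RCC4+VHL (adjusted p = 4.81e-18) and 0.40 in HepG2 (adjusted p = 8.38e-05). METTL7A fell by 0.84 in RCC4+VHL and by 0.89 in HepG2. ACSL3, an acyl-CoA synthetase of nascent droplets, rose by 0.34 in HKC-8 and 0.31 in HepG2 and fell by 0.11 in RCC4+VHL. PLIN1, the adipocyte perilipin, had 0 to 45 counts per library, and in HKC-8 its change of 0.98 did not pass (adjusted p = 0.0574).

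Of 7 other lipases tested in HKC-8, 2 rose. In RCC4+VHL 3 rose and 2 fell of 6, and in HepG2 2 rose and 1 fell of 6. MGLL, which completes triglyceride breakdown by cutting monoglyceride, rose by 0.72 in HKC-8 (adjusted p = 0.0148) and 0.67 in RCC4+VHL (adjusted p = 2.28e-13). PNPLA3, a close relative of PNPLA2, rose by 0.54 in HKC-8 and fell by 0.83 in RCC4+VHL. DDHD2 rose by 0.45 in RCC4+VHL and 0.39 in HepG2. LIPE, hormone-sensitive lipase, had 0 to 58 counts per library.

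Triglyceride and sterol ester synthesis moved both ways, with 4 up and 2 down of 15 tested in HKC-8, 3 and 3 of 16 in RCC4+VHL, and 6 and 6 of 18 in HepG2. AGPAT2, which adds the fatty acid that forms phosphatidic acid, rose by 2.00 in HepG2 (SE 0.11, adjusted p = 1.46e-08). GPAM, the mitochondrial enzyme of the first step, fell by 0.75 in HKC-8 (adjusted p = 0.00159) and 1.34 in HepG2 (adjusted p = 3.06e-09). LPIN2, a phosphatidate phosphatase, rose by 0.37 in HKC-8, 0.53 in RCC4+VHL and 0.48 in HepG2. DGAT1, which makes the final bond, fell by 0.39 in RCC4+VHL and 0.68 in HepG2.

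Among fatty acid uptake and activation genes, 1 of 12 tested passed in HKC-8 and rose, 3 of 11 rose and 2 fell in RCC4+VHL, and 3 of 14 rose and 4 fell in HepG2. VLDLR, which brings lipoprotein lipid into cells, rose by 2.20 in HKC-8 (adjusted p = 8.70e-06), 0.46 in RCC4+VHL (adjusted p = 6.04e-10) and 1.99 in HepG2 (adjusted p = 1.71e-08). FABP1 rose by 0.88 and ACSL1 fell by 0.81 in HepG2. Of the nuclear receptors and co-activators that act on droplet genes, the 8 tested in HKC-8 had adjusted p from 0.0803 (PPARG) to 0.965 (NR1H3) in edgeR, 2 rose and 5 fell of 9 in RCC4+VHL, and 2 rose and 3 fell of 10 in HepG2. In HepG2 PPARG rose by 1.06 (adjusted p = 3.84e-07, edgeR), whereas PPARGC1B fell (log2 -1.26, adjusted p = 8.15e-05, edgeR). PPARGC1A fell by 0.70 in RCC4+VHL (adjusted p = 1.26e-08). In HepG2 5 of 6 lipoprotein assembly genes rose, among them APOC3 by 1.26 (adjusted p = 2.93e-06) and MTTP, the microsomal transfer protein, by 0.54 (adjusted p = 0.00250). Of that list, HKC-8 had enough counts for PLTP (adjusted p = 0.355) and SURF4 (adjusted p = 0.947), and SURF4, the only one tested in RCC4+VHL, fell by 0.12.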

How the data were processed

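Human polyA+ RNA was sequenced in 18 libraries of 3 cell lines, with 3 normoxic and 3 hypoxic libraries each. The authors deposited whole-number read counts per gene, 1 table per library. The submitters' processing notes name Trim Galore 0.3.3, TopHat2 2.0.8b, Bowtie 1.0.0, SAMtools 0.1.19, HTSeq 0.5.4p3, DESeq2 and GRCh37. The strand setting of the counting is not given in the sources used here. HKC-8 libraries were spread over 2 lanes according to their label.

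From these counts, genes were filtered by filterByExpr, scaled by TMM and tested in edgeR 4.0.16 (R 4.3.3) by the quasi-likelihood test, with Benjamini-Hochberg adjustment over all genes tested and a threshold of 0.05. Each line was fitted alone. Differences between responses were interaction terms in a fit of both lines, and normoxic lines were compared in a fit of the 9 normoxic libraries. Printed CPM are scaled over all 18 libraries, and log2 CPM used a prior count of 2. Alternatives were DESeq2 1.42.0, median-of-ratios factors, other count filters, the replicate number as a block, a single fit of all libraries and leaving out each library. Scripts were tested on simulated data. Exon lengths and positions come from GENCODE on GRCh37, and promoters from RefSeq on GRCh38.p14, placed on GRCh37 where the sequence matched exactly and once.

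Replicate pairs differed beyond counting noise in all groups, so no library was counted as a duplicate. Same-numbered HKC-8 libraries deviated together (correlations 0.109 to 0.453, all above 0.1), so their numbers may pair them. The main tests did not use this pairing, which entered only as the replicate block. Correlations in RCC4+VHL (-0.0103 to 0.0333) and HepG2 (0.0617 to 0.184) were not above 0.1 in every pair.

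The 10 genes were fixed by name. Of each other list, at most the 3 called genes with the largest rise and the 3 with the largest fall in a line were eligible to be named, and for HILPDA and PLIN2 the 3 genes of highest Pearson r. PLIN1, LIPE, PLTP, NR1H3 and further-line values of named genes were added after their values were seen. Genes and lists were chosen with earlier results of these data known. Total counts of 40915980 to 97984260 per library set the precision for low genes such as PLIN5.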

Additional observations from a re-analysis of the deposited data

Results flagged for a closer look

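The hypoxia responses of several droplet genes differed between lines by an interaction test in edgeR, given on the log2 scale with the SE. Between HKC-8 and HepG2 the difference was -2.06 for PLIN2 (SE 0.12, adjusted p = 4.74e-08), -0.55 for HILPDA (SE 0.14, adjusted p = 0.0267), -0.51 for CIDEB (SE 0.11, adjusted p = 0.0103), -0.45 for PLIN3 (SE 0.12, adjusted p = 0.0241) and 0.60 for ABHD5 (SE 0.14, adjusted p = 0.0108). Between RCC4+VHL and HKC-8 it was 1.29 for PLIN2 (SE 0.08, adjusted p = 1.98e-06), 0.38 for PLIN3 (SE 0.09, adjusted p = 0.0136) and -0.37 for ABHD5 (SE 0.09, adjusted p = 0.0133). Between RCC4+VHL and HepG2 it was -0.76 for PLIN2 (SE 0.08, adjusted p = 1.04e-06), -0.59 for HILPDA (SE 0.12, adjusted p = 0.00171) and -0.53 for PNPLA2 (SE 0.09, adjusted p = 4.28e-04). Line and labelled exposure cannot be told apart where RCC4+VHL takes part. The same holds for HKC-8 against HepG2 if the HKC-8 titles (0.1% oxygen, against 0.5% in HepG2) are right. The HILPDA and PLIN3 calls between HKC-8 and HepG2 were lost in several of 12 edgeR fits that left out 1 library (adjusted p up to 0.0880 and 0.0705). The part of NOP9 reads in the CIDEB value was not tested.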

How the results depend on the processing

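Calls in HKC-8 depended most on the processing. There 2757 genes and 3 of the droplet genes were called, against 5755 genes and 5 with the replicate number as a block and 5013 genes and 5 in a single fit of all 18 libraries. DESeq2 also called 5. PLIN3 and G0S2 were the additions in each. Leaving out 1 library gave 1013 to 3283 genes and 1 to 4 droplet genes, with 1013 genes without normoxic replicate 1, 1092 without hypoxic replicate 1, 1455 without normoxic replicate 2 and 1712 without hypoxic replicate 3. In RCC4+VHL the single fit called 3286 genes in place of 6423 and 3 droplet genes in place of 5, and leaving out a library gave 5594 to 5952 genes. In HepG2 leaving out a library gave 4095 to 5858 genes and 4 to 5 droplet genes.

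For differences between responses, the block called 3019 genes in place of 1399 (HKC-8 and HepG2) and 4071 in place of 2154 (RCC4+VHL and HKC-8). Leaving out a library gave 911 to 1890, 1498 to 2916 and, for RCC4+VHL and HepG2, 2755 to 3701 genes. The lowest, 911, was without HepG2 hypoxic replicate 1. Of the droplet genes, 3 to 5 were called between HKC-8 and HepG2, with 3 without HKC-8 normoxic replicate 1 or HepG2 hypoxic replicate 3. Canonical transcript lengths, chosen after seeing the data, moved the PLIN2 share to 52.0% and 62.9% in HKC-8, 46.8% and 72.3% in RCC4+VHL and 61.9% and 88.6% in HepG2.

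The sign turned in 8 leave-one-out fits, all of differences that were not called. These were ABHD5 in HKC-8 (-0.01 and -0.02 without normoxic or hypoxic replicate 1, range -0.020 to 0.057), PNPLA2 in HKC-8 (range -0.17 to 0.054) and PLIN5 in HepG2 (-0.19 without normoxic replicate 3, -0.28 without hypoxic replicate 1, range up to 0.56). The others were response differences of PNPLA2 (range -0.22 to 0.012) and PLIN4 (-0.49 to 0.066) between RCC4+VHL and HKC-8 and of PLIN3 (-0.098 to 0.0056) between RCC4+VHL and HepG2. No sign turned under the other settings. The block also brought PLIN3 (adjusted p = 0.0213) and CIDEC (adjusted p = 0.0340) past the edgeR threshold in HepG2. Same-numbered HepG2 libraries had correlations of 0.0617 to 0.184, not above 0.1 in every pair, so whether their numbers pair them is not settled. Causes of these changes were not tested. Counts were low for PLIN5 in every line, for PLIN4 outside HepG2 and for G0S2 outside HKC-8, so values there are imprecise.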
